A study of Mus musculus with 20 samples.

Results

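The genes described here are the adult globin genes Hba-a1, Hba-a2, Hbb-bs and Hbb-bt, the erythroid haem enzyme gene Alas2, the erythropoietin gene Epo and the erythroferrone gene Erfe. These 7 genes were taken by symbol from the 47069 Ensembl genes of the count table. They were selected on their measured levels in these mice, because erythroid markers were lower in vehicle-treated than in wildtype kidneys and Erfe was higher in every knockout group, so those differences are given as values with no test.

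Whole kidneys of 20 mice from an F1 cross of 129SJ and C57Bl/6J were sequenced at 15 weeks of age. The 5 WT mice were untreated. The other 15 mice lacked Col4a3, which encodes a chain of the type IV collagen of the glomerular basement membrane, and serve as a model of Alport syndrome. From 5 weeks of age, 6 of them received PBS once weekly under the skin (Veh), 6 were given 50 mg/kg of lademirsen, which blocks miR-21, by the same route and schedule (Anti-miR-21), and 3 received ramipril, an inhibitor of angiotensin-converting enzyme, at 11 mg/L in the drinking water (ACEi). By the study's methods the ACEi mice were also given PBS injections. The WT mice were untreated while the Veh mice were injected, so genotype and injection cannot be told apart in that comparison.

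Circulating red cells of the mouse keep some globin mRNA while they are reticulocytes, the youngest cells released from marrow and spleen. Alas2 catalyses the first step of haem synthesis in these cells. Erythropoietin is made by interstitial fibroblasts of the kidney when oxygen is short and drives the formation of red cells. Erythroblasts answer it with erythroferrone, a hormone that lowers hepcidin in the liver and so releases iron.

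Each library held between 28474301 and 29479629 estimated counts on genes. Levels are given as CPM, the usual scaling of counts to a fixed library size, here after TMM normalization, and differences as log2 fold changes from edgeR. Col4a3 itself had 217 ± 16.4 CPM in WT (SD, n = 5), 37.8 ± 7.63 in Veh (n = 6), 58.8 ± 11.1 in Anti-miR-21 (n = 6) and 48.5 ± 6.97 in ACEi (n = 3). The kidney markers summed to between 3462 and 17946 CPM in all mice, although the extraction text of the labels names adipose tissue. The adipocyte markers summed to between 1.68 and 18.7 CPM in WT, 0.705 and 419 in Veh, 4.73 and 231 in Anti-miR-21 and 0.558 and 8.52 in ACEi. WT mouse A6 stood far above the other WT mice in globin levels and Veh mouse A9 lay lowest, and results are also given without these 2 mice.

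The stretches before the start sites of 3 genes that moved together, and of Epo and Erfe, are shown because they let the erythroid genes be compared with the 2 hormone genes. They were taken from RefSeq on GRCm38.p6 within the 250 bases before the start, leaving out bases that GENCODE annotates as untranslated. Each reads 5′ to 3′ on the strand of the gene. Capitals mark 4 motifs. The first is GATAA, read as TTATC on the opposite strand. The second is CACCC, read as GGGTG on the opposite strand. The third is ACGTG, read as CACGT on the opposite strand. The last is TATAA, searched on the strand of the gene only, and it has the letters ATAA in common with GATAA.
Hba-a2 (chr11:32296242-32296488, plus strand): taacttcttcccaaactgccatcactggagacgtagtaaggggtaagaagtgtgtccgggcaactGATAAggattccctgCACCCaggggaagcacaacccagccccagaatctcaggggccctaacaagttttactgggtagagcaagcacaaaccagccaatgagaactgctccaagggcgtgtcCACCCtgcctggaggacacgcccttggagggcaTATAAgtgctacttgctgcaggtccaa
Hbb-bt (chr7:103813997-103814173, minus strand): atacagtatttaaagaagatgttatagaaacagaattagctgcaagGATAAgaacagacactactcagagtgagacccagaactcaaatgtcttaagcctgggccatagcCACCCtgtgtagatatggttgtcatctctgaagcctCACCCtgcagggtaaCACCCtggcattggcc
Alas2 (chrX:150547167-150547374, plus strand): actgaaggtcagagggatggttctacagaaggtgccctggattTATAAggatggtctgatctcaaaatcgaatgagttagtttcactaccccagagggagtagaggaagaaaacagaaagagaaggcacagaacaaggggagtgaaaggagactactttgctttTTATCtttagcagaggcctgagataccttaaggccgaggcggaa
Epo (chr5:137485853-137486066, minus strand): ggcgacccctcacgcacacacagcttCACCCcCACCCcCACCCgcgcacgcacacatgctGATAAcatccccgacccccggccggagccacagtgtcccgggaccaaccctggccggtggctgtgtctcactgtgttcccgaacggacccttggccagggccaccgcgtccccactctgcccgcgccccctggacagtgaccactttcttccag
Erfe (chr1:91366180-91366429, plus strand): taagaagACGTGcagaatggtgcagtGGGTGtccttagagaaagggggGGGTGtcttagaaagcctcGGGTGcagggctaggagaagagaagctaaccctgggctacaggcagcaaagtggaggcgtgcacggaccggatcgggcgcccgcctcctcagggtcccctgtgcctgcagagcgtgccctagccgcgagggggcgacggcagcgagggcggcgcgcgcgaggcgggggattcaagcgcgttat
In the full 250 bases, GATAA, the core read by GATA factors, occurred in 6 of the 7 genes, all but Erfe, and in 22.6% of 32851 promoters of the same length. CACCC, the core read by KLF factors such as the erythroid factor KLF1, occurred in all 7 genes and in 52% of promoters. TATAA occurred in the 5 erythroid genes and in 16% of promoters. ACGTG, the core of hypoxia response elements, occurred in Erfe alone among the 7 and in 16.6% of promoters. These matches describe letters in a window and no binding was measured.

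The globin genes lie in pairs of near copies. On GRCm38, Hba-a1 (ENSMUSG00000069919) lies at chr11:32283511-32284465 and Hba-a2 (ENSMUSG00000069917) at chr11:32296489-32297298. Hbb-bs (ENSMUSG00000052305) lies at chr7:103826534-103828096 and Hbb-bt (ENSMUSG00000073940) at chr7:103812524-103813996, both on the minus strand. Of all 100-base windows of the Hba-a1 transcript, 56.5% occur without a mismatch in that of Hba-a2, and 62.6% of those of Hbb-bs occur in Hbb-bt. The split of reads within each pair is therefore uncertain.

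All 4 globin genes were 17.5 to 23.9 times lower in mean level in Veh than in WT kidneys and lay in between in both treated groups. Hbb-bs, an adult beta globin, had 843, 2584, 830, 383 and 560 CPM in WT mice A3, A6, A14, A17 and A18. In Veh it ranged from 4.93 to 149.9 CPM with a median of 45.2, and in Anti-miR-21 from 288 to 606 with a median of 544. The ACEi mice had 128, 280 and 284 CPM. Every WT mouse was above every Veh mouse, Anti-miR-21 overlapped with WT, and 1 ACEi mouse lay within the range of Veh. Mean levels were 1040 ± 884 CPM in WT, 56.8 ± 51.6 in Veh, 490 ± 124 in Anti-miR-21 and 231 ± 89.3 in ACEi (SD). Relative to WT, the means stood at 5.46% in Veh, 47.1% in Anti-miR-21 and 22.2% in ACEi.

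Hba-a1, an adult alpha globin, had 490, 1179, 378, 249 and 368 CPM in the same WT mice. It ranged from 2.24 to 87.0 CPM in Veh with a median of 23.1 and from 146 to 297 in Anti-miR-21 with a median of 249, and the ACEi mice had 78.3, 154 and 145. As for Hbb-bs, the WT and Veh ranges were apart and ACEi reached into Veh. Mean levels of its copy Hba-a2 were 773 ± 592 CPM in WT, 40.8 ± 39.5 in Veh, 325 ± 71.8 in Anti-miR-21 and 179 ± 61.0 in ACEi. Those of Hbb-bt, the second adult beta globin, were 361 ± 293, 15.1 ± 15.3, 142 ± 24.9 and 69.0 ± 24.3 CPM. Together the 4 genes took between 0.0920% and 0.541% of the counts in WT and between 0.00154% and 0.0442% in Veh. Fewer red cells in the kidney and less globin RNA per cell cannot be told apart in whole tissue.

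Alas2 (ENSMUSG00000025270, chrX:150547375-150570638) followed the globins. The WT mice A3, A6, A14, A17 and A18 had 35.6, 121, 30.4, 16.1 and 27.9 CPM. Veh mice ranged from 0.280 to 5.86 CPM with a median of 1.82, Anti-miR-21 mice from 14.2 to 26.4 with a median of 21.9, and the ACEi mice had 6.13, 9.52 and 11.2. Neither treated group overlapped with Veh, the ACEi mice were below all WT mice, and Anti-miR-21 overlapped with WT. In ACEi against WT all 5 erythroid genes were lower without overlap, as 22.3% of genes were. The gene overlaps Apex2 on the other strand, and the sources used here do not state whether counting used strand.

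**Figure D1:**
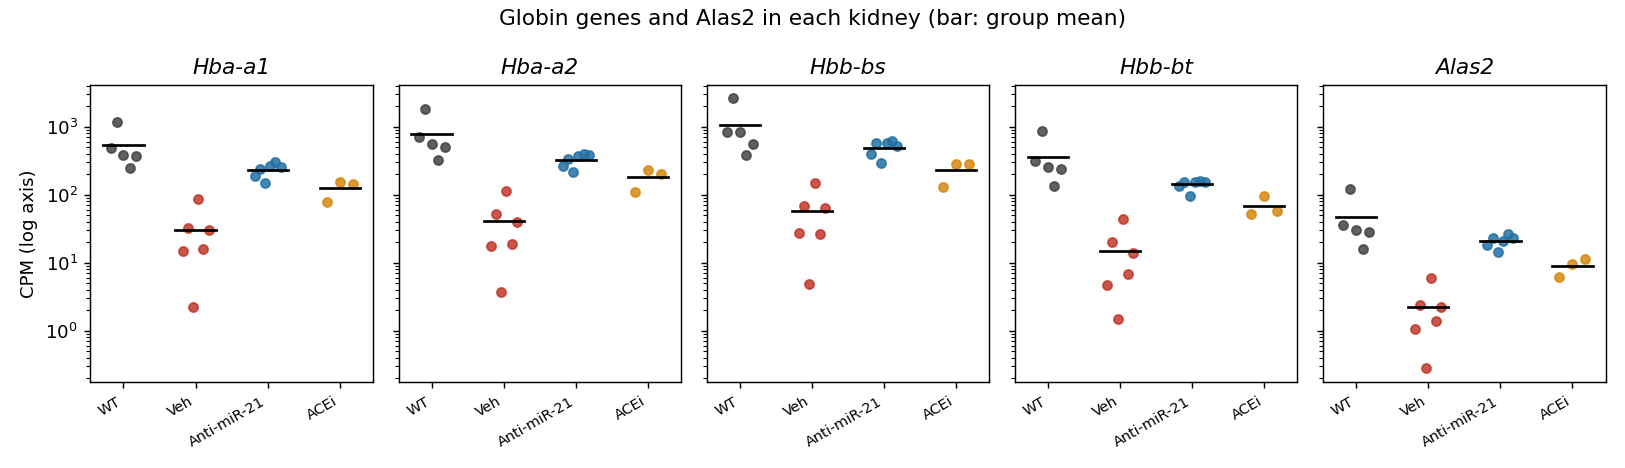
Levels of the 4 globin genes and Alas2 in each of the 20 kidneys, in CPM on a log axis. Points are mice and bars are group means. The Veh mean lies lowest in each panel, and 1 WT mouse (A6, Hbb-bs 2584 CPM) lies above all others.

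Between Veh and WT, the log2 fold change of the 5 erythroid genes had a median of -4.25 and ranged from -4.13 for Hba-a1 to -4.59 for Hbb-bt. All 5 were lower with no overlap, as the choice of genes fixes, and 26.1% of all genes tested were lower without overlap in this comparison. Without A6 and A9 the median was -3.42. Within flow cell A, which held 13 of the 20 libraries, it was -5.47. Hbb-bs averaged 1419 CPM in WT and 31.9 in Veh on flow cell A, and 472 and 106 on flow cell B.

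Anti-miR-21 treatment was tested against Veh, whose mice were also used in choosing the genes. All 5 erythroid genes rose (edgeR's quasi-likelihood test, adjusted over 17622 genes), where 28.8% of all genes tested rose. Alas2 rose most, by a log2 fold change of 3.27 ± 0.51 (SE, adjusted p = 1.6e-05), and Hba-a1 least, by 2.93 ± 0.55 (adjusted p = 0.00013). Hbb-bs rose by 3.11 ± 0.58 (adjusted p = 0.00012). All 5 were above Veh in every mouse, as 18.6% of genes tested were. Without A6 and A9 all 5 calls held, with log2 fold changes from 2.69 to 3.03.

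ACEi treatment gave smaller differences from the same Veh mice. All 5 erythroid genes rose, where 21% of genes tested rose, with log2 fold changes from 2.02 ± 0.63 for Hbb-bs (adjusted p = 0.015) to 2.20 ± 0.62 for Hbb-bt (adjusted p = 0.0083). Hbb-bt and Alas2 were above Veh in every mouse, and 19.8% of genes tested were. Without ACEi mouse A13 only 3 of the 5 calls held, and without ACEi mouse A23 the call of Hbb-bs was lost (adjusted p = 0.054).

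The 2 treatments were not told apart. None of the 6 members tested, which leave out Epo for its low counts, passed between Anti-miR-21 and ACEi with edgeR, where 0.584% of genes did. At an unadjusted p under 0.05 there was 1, and DESeq2 called 0. Alas2 came nearest, at 1.23 ± 0.58 (adjusted p = 0.33 in edgeR), with a 95% interval of the log2 difference from 0.03 to 2.44. For Hbb-bs the difference was 1.09 with an interval from -0.35 to 2.52. Hbb-bs and Alas2 were higher in every Anti-miR-21 mouse than in every ACEi mouse, as 4.19% of genes were. Flow cell was uneven between the 2 treatments, as flow cell B held 2 of the 3 ACEi libraries and 1 of the 6 Anti-miR-21 libraries. That Anti-miR-21 mouse, A10, was the lowest of its group, with 288 CPM of Hbb-bs and 14.2 of Alas2. Anti-miR-21 mice on flow cell A averaged 530 and 22.4 CPM. The highest ACEi level of Hbb-bs was 284 CPM. Flow cell B was the lower for Hbb-bs in WT (472 CPM against 1419 on A) and the higher in Veh (106 against 31.9). With 1 Anti-miR-21 library on flow cell B and 1 ACEi library on flow cell A, flow cell and treatment cannot be well told apart. With only these 2 groups in the fit, Alas2 and Hbb-bt passed (adjusted p = 0.026 and 0.049).

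The WT mice were also used in choosing the genes, so neither comparison against WT is independent of that choice. Against WT, the erythroid genes stayed lower in ACEi. All 5 fell, where 22.5% of genes tested fell, from a log2 fold change of -2.08 ± 0.70 for Hba-a1 (adjusted p = 0.019) to -2.39 ± 0.73 for Hbb-bt (adjusted p = 0.010 in edgeR). The count of calls was 2 without WT mouse A6, 1 without ACEi mouse A11 and 3 without ACEi mouse A23, and all 5 held without A6 and A9 together. In Anti-miR-21, Hbb-bt (-1.35 ± 0.54, adjusted p = 0.0497) and Alas2 (-1.13 ± 0.45, adjusted p = 0.049) passed narrowly, and 19.8% of genes tested fell. Both calls were lost without WT mouse A3 or A6 or any 1 Anti-miR-21 mouse, that of Hbb-bt was lost without WT mouse A14, and without A6 the difference of Alas2 was -0.39. The other 3 genes had values from -1.09 to -1.25 and did not pass.

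The shares of genes given beside these counts depend on the scaling. Between Veh and WT 6869 genes rose and 5998 fell after TMM normalization, and 11623 rose and 2684 fell with library totals alone, where the median of all genes moved from 0.07 to 0.65. Between Anti-miR-21 and Veh the counts went from 5073 and 5367 to 2459 and 9861, and the median from -0.04 to -0.38. Between ACEi and Veh they went from 3704 and 3370 to 1907 and 7389, and to 3063 and 4317 with upper-quartile scaling. Against WT they went from 4203 and 3496 to 7719 and 998 in Anti-miR-21 and from 4432 and 3973 to 8006 and 1345 in ACEi. No erythroid gene changed direction under library totals alone in these comparisons.

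**Figure D2:**
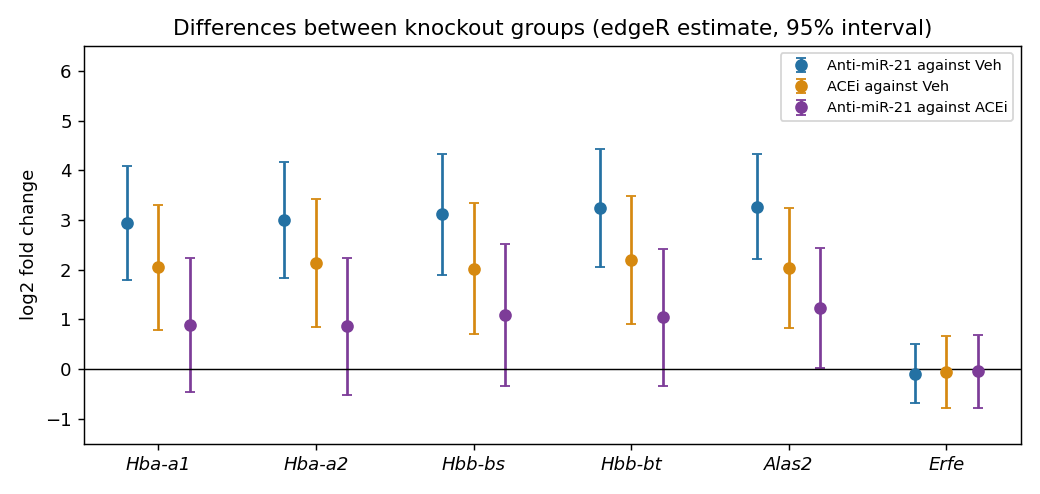
Log2 fold changes of the 5 erythroid genes and Erfe between the knockout groups, as edgeR estimates with 95% intervals. The erythroid genes lie between 2.93 and 3.27 for Anti-miR-21 against Veh, the intervals of Anti-miR-21 against ACEi include 0 for all but Alas2, and Erfe lies near 0 in each comparison.

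The erythroid genes moved together from mouse to mouse. Over the 20 mice, deviations of log2 CPM from the group mean had a Pearson r of 0.98 and a Spearman rho of 0.96 between Hbb-bs and Alas2 (permutation p = 1e-05 for each, the smallest that 100000 permutations can give, adjusted p = 6e-05 over 6 pairs). Without A9 and A16, the mice farthest from the median, r was 0.96. It was 0.99 within Veh and 0.96 within Anti-miR-21. The genes most like Hbb-bs by this measure, among 15327 protein-coding genes, were Hba-a2 (r = 0.99), Hba-a1 (0.99), Alas2 (0.98), Hbb-bt (0.97) and Tmed6 (0.92). The 4 genes most like Alas2 were the 4 globin genes. These genes share libraries and depth, and the r of each gene is a description.

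**Figure D3:**
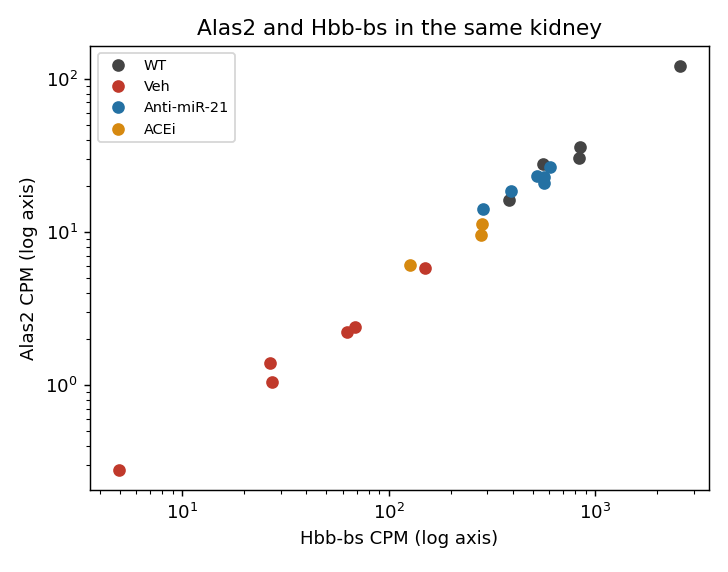
Alas2 against Hbb-bs in the same kidney, in CPM on log axes, with 1 point per mouse. Points of all 4 groups lie close to 1 line, from Veh mouse A9 (4.93 and 0.280 CPM) to WT mouse A6 (2584 and 121 CPM).

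Ratios within a mouse varied far less than the levels. Alas2 was 1.61 ± 0.17% of the summed globin CPM in WT, 1.73 ± 0.36% in Veh, 1.78 ± 0.13% in Anti-miR-21 and 1.52 ± 0.23% in ACEi. The ratio of alpha to beta globin CPM was 0.985 ± 0.117 in WT, 0.974 ± 0.0547 in Veh, 0.887 ± 0.0520 in Anti-miR-21 and 1.02 ± 0.0237 in ACEi. Its range in Anti-miR-21, 0.798 to 0.941, lay below that in ACEi, 1.01 to 1.05. Hbb-bt made up 26.2 ± 2.39% of beta globin CPM in WT and 20.3 ± 3.34% in Veh. These ratios compare mice, are not corrected for gene length and were not tested.

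Other red cell genes were near the limit of detection and did not all follow the globins. Of the 15 listed, 8 could be tested. Between Anti-miR-21 and Veh, 3 rose and none fell, where 28.8% of genes tested rose, among them the erythroid factor gene Klf1 by 1.13 ± 0.29 (adjusted p = 0.0023). The median of the 8 was -0.12, against -0.04 for all genes. Between ACEi and Veh none passed in edgeR, 1 had an unadjusted p under 0.05 and DESeq2 called 1. Epb42, a membrane skeleton gene, had 0.912 CPM in WT, 2.22 in Veh, 2.19 in Anti-miR-21 and 2.74 in ACEi. The summed level of the list ranged from 3.10 to 10.8 CPM in WT and from 4.69 to 6.94 in Veh.

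Haem synthesis genes other than Alas2, most of which serve all cells, were lower in Veh too. Of 9 tested, 8 fell between Veh and WT, where 34% of genes fell. With library totals alone 5 fell and 1 rose. Cpox fell most, from 188 ± 8.32 to 47.0 ± 11.2 CPM (adjusted p = 5.7e-11), and Urod least, from 86.1 ± 6.11 to 53.9 ± 2.38 CPM (adjusted p = 3.8e-08). Between Anti-miR-21 and Veh 7 rose, where 28.8% of genes did, with Cpox at 1.36 ± 0.12 (adjusted p = 5.9e-08), and between ACEi and Veh 8 rose, where 21% did. With library totals alone the counts were 5 and 3 risen, and 1 gene fell in each. These enzymes are abundant in kidney tubules, and the kidney markers summed to a mean of 16917 CPM in WT, 5209 in Veh, 12122 in Anti-miR-21 and 10524 in ACEi. The part of tubule content in the enzyme levels was not tested.

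Epo (ENSMUSG00000029711, chr5:137483020-137533242, minus strand) was barely detected. WT mice A3, A6, A14, A17 and A18 had between 0 and 3 counts, Veh mice between 0 and 6 with a median of 0.5, Anti-miR-21 mice between 1 and 12 with a median of 4.5, and ACEi mice between 0 and 2. The sums were 4, 9, 32 and 3 counts in WT, Veh, Anti-miR-21 and ACEi, and all groups overlapped. Epo did not pass the filter on low counts. With no filter, the log2 fold change of Anti-miR-21 against Veh was 2.09 ± 0.88 (adjusted p = 0.069 in edgeR over 27201 genes), and it was 2.39 ± 1.03 against WT (adjusted p = 0.095). On the deposited FPKM values, with limma on log2(FPKM + 0.1), Epo was higher in Anti-miR-21 than in Veh by 1.03 ± 0.39 (adjusted p = 0.032) and than in WT by 1.25 ± 0.41 (adjusted p = 0.023). These FPKM values rest on the same few reads, and the call therefore depends on the table and test used. The gene model overlaps 7 other genes, and the authors marked its FPKM entry as confounded.

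Genes tied to Epo production were described from fixed lists. Of 12 hypoxia-responsive genes, 8 fell and 2 rose between Veh and WT, where 34% and 39% of genes did, and 5 fell and 5 rose with library totals alone. Car9, a carbonic anhydrase, fell by 2.82 ± 0.24 (adjusted p = 1.6e-09), and Vegfa, a vascular growth factor, fell by 1.34 ± 0.09 (adjusted p = 1.2e-10). Between Anti-miR-21 and Veh 7 rose and 2 fell, where 28.8% and 30.5% of genes did, with Car9 at 2.12 ± 0.23 (adjusted p = 2.6e-07). ACEi gave the same counts, where 21% and 19.1% of genes did. Of 5 genes for factors that act on the Epo gene, 3 rose and 1 fell between Veh and WT, where 39% and 34% of genes did. Between Anti-miR-21 and Veh, 1 rose and 3 fell, where 28.8% and 30.5% did. Nr2f1 rose from 1.96 ± 0.393 CPM in WT to 5.56 ± 0.66 in Veh (adjusted p = 2.7e-08 in edgeR), Gata3 by a log2 value of 0.41 ± 0.13 (adjusted p = 0.0076) and Nr2f2 by 0.26 ± 0.08 (adjusted p = 0.0090). Hnf4a, the gene of the list that fell, fell by 1.75 ± 0.13 between Veh and WT (adjusted p = 3.3e-10) and rose by 1.35 ± 0.13 in Anti-miR-21 against Veh (adjusted p = 7.2e-08). It averaged 826 CPM in WT, 245 in Veh, 623 in Anti-miR-21 and 570 in ACEi, the same order of groups as the summed kidney markers. The part of tubule content in the level of Hnf4a was not tested. Of 5 markers of interstitial fibroblasts and pericytes, 4 rose and 1 fell in Veh against WT, where 39% and 34% of genes did. Pdgfrb rose by 2.03 ± 0.14 (adjusted p = 1.5e-10) and Nt5e fell by 1.42 ± 0.15 (adjusted p = 4.3e-08). Nt5e averaged 166 CPM in WT, 61.8 in Veh, 125 in Anti-miR-21 and 123 in ACEi, again in the order of the kidney markers. The part of tubule content in the level of Nt5e was not tested either.

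Signalling genes downstream of the erythropoietin receptor were mostly higher in Veh. Of 12, 7 rose and 1 fell between Veh and WT, where 39% and 34% of genes did, and 10 rose and 0 fell with library totals alone. Socs3, an inhibitor of cytokine signalling, rose by 4.96 ± 0.25 (adjusted p = 2.3e-12) and fell by 1.41 ± 0.19 in Anti-miR-21 against Veh (adjusted p = 2.6e-06). The receptor gene Epor ranged from 2.58 to 15.6 CPM in WT, 2.53 to 6.66 in Veh, 1.93 to 2.92 in Anti-miR-21 and 1.93 to 3.41 in ACEi. It fell by 0.97 ± 0.33 in Anti-miR-21 against Veh (adjusted p = 0.017). These genes serve other cytokine receptors as well, and macrophage markers summed to a mean of 136 CPM in WT, 898 in Veh, 440 in Anti-miR-21 and 580 in ACEi. The part of macrophage content in the levels of these genes was not tested.

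Erfe (ENSMUSG00000047443, chr1:91366430-91374217, plus strand) was near absent in WT and detected at a low level in every knockout mouse. The WT mice A3, A6, A14, A17 and A18 had 0, 0.0820, 0.0845, 0.0409 and 0.0419 CPM, which is at most 2 counts in a library. Veh mice ranged from 0.365 to 0.700 CPM with a median of 0.489, Anti-miR-21 mice from 0.295 to 0.640 with a median of 0.496, and the ACEi mice had 0.525, 0.608 and 0.341. All 15 knockout mice, with 8 to 25 counts each, were above all WT mice, as the choice of genes fixes. Of all genes tested, 28.8% were higher without overlap in Veh, 14.7% in Anti-miR-21 and 23.9% in ACEi against WT. Against a floor of 3 counts per WT library, the mean was at least 4.03-fold higher in Veh, at least 3.77-fold in Anti-miR-21 and at least 3.89-fold in ACEi.

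Erfe did not pass the test between any pair of knockout groups. Its levels in every knockout group were used in choosing it, so these comparisons are not independent of that choice. It also passed the count filter only through those groups, as WT libraries held at most 2 counts. The log2 fold change was -0.10 ± 0.28 for Anti-miR-21 against Veh (adjusted p = 0.79 in edgeR), with a 95% interval from -0.69 to 0.50. It was -0.05 for ACEi against Veh, with an interval from -0.78 to 0.67, and -0.04 for Anti-miR-21 against ACEi, with an interval from -0.78 to 0.69. The signs of these small values turned when single mice were left out. The 3′ end of Erfe overlaps Ilkap on the other strand, which had 50.8 ± 2.95 CPM in WT and 43.0 ± 3.49 in Veh. Its mean count before scaling was 1207 in WT and 1516 in Veh, so its direction depends on the scaling, and its part in the level of Erfe was not tested. The authors also marked the FPKM entry of Erfe as confounded.

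**Figure D4:**
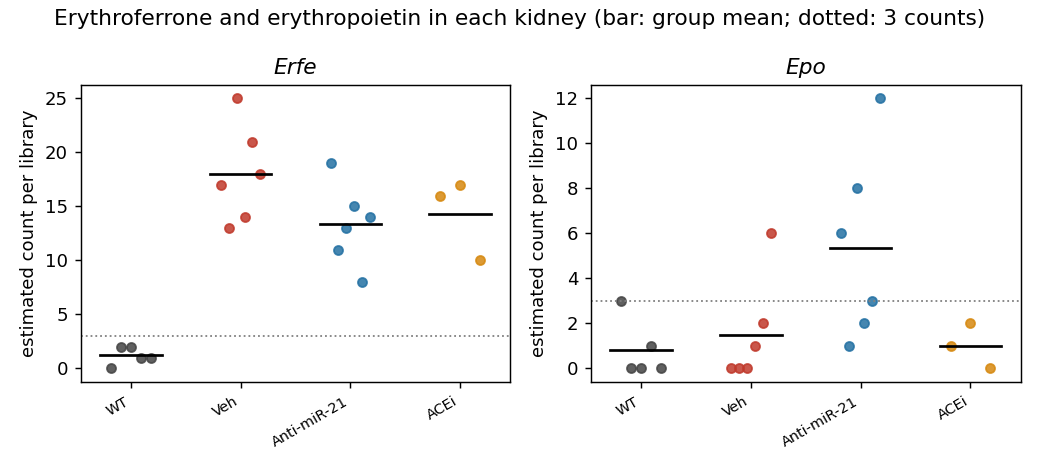
Estimated counts of Erfe and Epo in each of the 20 libraries, with group means as bars and a dotted line at 3 counts. All 15 knockout libraries hold 8 to 25 counts of Erfe, while Epo exceeds 3 counts in 4 libraries.

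Within groups, the relation of Erfe to the other members did not pass the test. Its Pearson r with Hbb-bs was -0.25 and its Spearman rho -0.27 over the 20 mice (permutation p = 0.29 for each, adjusted p = 0.79 and 0.57), and r was -0.01 without A9 and A16. Within Veh alone r was -0.83 with Hbb-bs and -0.77 with Alas2, and within Anti-miR-21 it was -0.35 and -0.41, as descriptions over 6 mice each. With Epo, r was -0.01 and rho 0.10 (permutation p = 0.98 and 0.70, adjusted p = 0.98 and 0.84). The genes most like Erfe were Zfand4 (r = 0.85), Ano3 (0.74), Sde2 (0.74), Gm38392 (0.73) and Ackr1 (0.73). Those most like Epo, at its few counts, were Usp10 (0.84), Yy1 (0.84), Zmiz2 (0.84), Scap (0.83) and Tmem201 (0.82). These are the highest r over 15327 genes, and Erfe too had few counts, at most 25 in a library. Group means do not enter this r. The geometric mean of Ano3 was 0.568 CPM in WT and 0.358 in Veh, and that of Zfand4 0.527 and 1.38.

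Genes around erythroferrone were followed as well. The hepcidin gene Hamp was at or near 0, with means of 0.0336 CPM in WT, 0.0233 in Veh and 0 in both treated groups. Of 10 tested genes of the erythroferrone and hepcidin axis, 9 rose between Veh and WT, where 39% of genes did, and 8 fell between Anti-miR-21 and Veh, where 30.5% did. Tmprss6, a protease that lowers hepcidin signalling, rose by 2.34 ± 0.71 in Veh against WT (adjusted p = 0.0056). Among 9 relatives in the C1q/TNF family, C1qtnf6 rose by 4.10 ± 0.19 (adjusted p = 7.5e-13) and C1qtnf3 fell by 3.34 ± 0.26 (adjusted p = 4e-10). C1qtnf6 was also lower in Anti-miR-21 than in ACEi, by a log2 value of -1.07 ± 0.17 (adjusted p = 0.0055). Skeletal muscle, another tissue that expresses Erfe, was followed through its markers. Ckm averaged 0.0330 CPM in WT and 0.0373 in Veh. The 9 muscle markers summed to between 0.779 and 1.55 CPM in WT and between 3.92 and 9.37 in Veh. They summed to between 1.84 and 3.17 in Anti-miR-21 and between 2.72 and 3.85 in ACEi. Of 4 tested, 3 rose in Veh against WT and 3 fell in Anti-miR-21 against Veh, where 39% and 30.5% of genes did. Acta1 rose by 4.45 ± 0.60 in Veh against WT (adjusted p = 1.1e-06 in edgeR), while Mylpf averaged 0.544 CPM in WT and 0.588 in Veh. Erfe averaged 0.509 CPM in Veh, 0.476 in Anti-miR-21 and 0.491 in ACEi. The part of muscle in the level of Erfe was not tested.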

How the data were processed

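Total RNA of 20 mouse kidneys was sequenced as 100-base paired reads. Alignment to GRCm38 used OmicSoft's aligner, and the authors deposited estimated counts (expected counts) per Ensembl gene, not normalized between libraries, of which 29.1% of positive values are not whole. They also deposited FPKM on another gene model, where Alas2 has no entry. Of the FPKM columns, 3 matched no sample and were not used. The deposited library table gives the flow cell and another dose of ramipril than the labels.

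Counts were rounded, scaled by TMM and filtered with filterByExpr (minimum count 10, total 15). Groups were compared with edgeR 4.0.16 (quasi-likelihood, 1 coefficient per group, all 20 mice, R 4.3.3), with Benjamini-Hochberg adjustment over 17622 genes and a threshold of 0.05. The log2 CPM of relations used a prior count of 2. Alternatives used DESeq2 1.42.0 and limma 3.58.1 on log2(FPKM + 1), other scalings and filters, flow cell, fewer groups and each mouse left out. Correlations, sums and intervals used Python 3.11.15, numpy 2.4.6, pandas 2.3.3 and scipy 1.17.1, and plots matplotlib 3.10.9. The test was checked on simulated counts.

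The members, the 18 lists and the alternatives were chosen with earlier results of these data known. Named genes were the 7 members, the list genes with the largest and smallest changes past the threshold, marker genes whose level bears on a member, and the 5 genes most like Erfe, Epo, Alas2 and Hbb-bs. Nothing in the labels says how mice relate across libraries, and p-values measure the spread between these mice. A few genes that this rule names are not reported here.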

Additional observations from a re-analysis of the deposited data

Results flagged for a closer look

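One mouse stood apart in a group of 5 or 6 for 7 values, among 33 group and measure pairs examined. Chance gives about 1 in 20 where values are normally distributed. These 7 values were levels in CPM without logs, and their distribution was not tested, so the flags depend on that scale. WT mouse A6 was far above the next WT mouse in all 5 erythroid genes, with 1179 CPM of Hba-a1 (next 490), 1804 of Hba-a2 (next 697), 2584 of Hbb-bs (next 843), 872 of Hbb-bt (next 315) and 121 of Alas2 (next 35.6). These genes move together, so they count as 1 departure. Veh mouse A16 had 87.0 CPM of Hba-a1, where the next Veh mouse had 32.5. Veh mouse A20 had 0.169 CPM of Epo, where the next had 0.0550, which rests on 6 counts.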

How the results depend on the processing

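No paired analysis was possible because every mouse has a name of its own and no number is shared between groups. The 5 calls between Anti-miR-21 and Veh held under every alternative run, with the 4 globin genes alone in the FPKM settings, where Alas2 has no entry. Epo, which fails the count filter, passed in the limma fits of log2(FPKM + 1) and log2(FPKM + 0.1) between Anti-miR-21 and Veh (adjusted p = 0.043 and 0.032) and between Anti-miR-21 and WT (adjusted p = 0.034 and 0.023). Between Anti-miR-21 and WT, where 2 genes passed, 0 passed with DESeq2, library totals alone, upper-quartile scaling, no filter, at least 10 counts in every mouse, flow cell as a term, log2(FPKM + 1) restricted to entries of at least 1 in 3 mice, or without A6 and A9 (chosen after seeing the data). In that comparison 4 passed within flow cell A, 5 with only the 2 groups in the fit, 1 (Epo) with log2(FPKM + 1) and 1 (Epo) with log2(FPKM + 0.1), and 0 to 3 with 1 mouse left out. Between ACEi and WT 1 passed with log2(FPKM + 1), 0 with log2(FPKM + 0.1), 2 with the FPKM restriction and 1 to 5 with 1 mouse left out. Between ACEi and Veh 3 to 5 passed with 1 mouse left out, and between Anti-miR-21 and ACEi 2 passed with only these groups in the fit. The median of the erythroid genes between Veh and WT was -5.47 within flow cell A. Listed genes called numbered 32 to 56 between ACEi and Veh with 1 mouse left out, against 58, and 0 to 2 between Anti-miR-21 and ACEi, against 2. Library totals alone moved the median of all genes from 0.07 to 0.65 between Veh and WT and turned no direction of an erythroid gene. The near-zero log2 differences of Erfe changed sign: with 1 mouse left out they ranged from -0.20 to 0.035 (Anti-miR-21 against Veh), -0.22 to 0.16 (ACEi against Veh) and -0.25 to 0.14 (Anti-miR-21 against ACEi), and without A6 and A9 they were 0.016 and 0.060 against Veh. The r of Hbb-bs and Epo became -0.20 by group and flow cell and -0.10 as Spearman's rho, that of Alas2 and Epo -0.20 and -0.011, and that of Epo and Erfe 0.058 with library totals, 0.22 with log2(FPKM + 1) and 0.10 as rho. The cause of these changes was not tested. Depth limits Epo and the minor red cell genes.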
